A study of Mus musculus with 56 samples.

Results

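The lipogenesis and stearoyl-CoA desaturase genes are 9 of the 22864 genes listed for mouse heart. They were picked by symbol, with the levels of several of them under both feeding regimens already known, and comprise the transcription factor gene Srebf1, the supply enzyme gene Acly, the carboxylase genes Acaca and Acacb, the synthase gene Fasn, the elongase gene Elovl6 and the desaturase genes Scd1, Scd2 and Scd4. All 9 passed the filter on low values (a mean of at least 1 TPM over all libraries, where TPM is the share of transcripts per unit of length on 1 fixed total). Because of that choice, differences between the regimens are given for them as description, with no p-value. The members' tests are those that do not set DRF against NRF: rhythm and meal phase within a regimen, ZT24 against ZT0, and correlations between libraries. The levels known beforehand include values from each regimen, so rhythm tests within DRF are not wholly independent of the choice. The daily course of Scd4 was also known, so its rhythm, meal phase and ZT24 against ZT0 are description too.

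Hearts came from 9-week-old females of the inbred mouse strain C57BL/6J, housed in 12 h of light and 12 h of darkness. From 7 weeks of age every mouse had normal chow at all hours for 7 days, and was then given food for 7 days only by day (daytime-restricted feeding, DRF) or only by night (nighttime-restricted feeding, NRF, the natural and reference schedule). Libraries of polyadenylated RNA were made every 4 h from ZT0 to ZT24, where zeitgeber time (ZT) counts hours from lights on, with 4 replicates per group in 14 groups, which gives 28 libraries under either regimen. No genotype differed between groups, and the labels do not say whether a replicate is 1 heart or a pool. Nothing in them says that replicates were processed apart, so a p-value here measures the spread between these libraries.

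De novo lipogenesis builds fatty acids from the acetyl-CoA that remains when sugar exceeds the need for energy. ATP citrate lyase makes cytosolic acetyl-CoA, acetyl-CoA carboxylase turns it into malonyl-CoA, fatty acid synthase joins these units into palmitate, ELOVL6 lengthens palmitate to stearate, and stearoyl-CoA desaturases put a double bond into the product. Liver and fat run the whole pathway after meals under SREBP-1, whereas heart muscle mainly burns fatty acids and uses malonyl-CoA, made at the mitochondrion by the product of Acacb, as the brake on their import.

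Under DRF, Scd1, Fasn, Acaca, Elovl6 and Acly had their highest group means at ZT12, the end of the meal, and these 5 varied together from library to library along with adipocyte markers, which also had their highest DRF means at ZT12. Under NRF the sum of these markers was highest at ZT12 too, while the 5 members were highest at ZT16. Scd2 was higher in fed than in fasted hours under both regimens. Scd4 was lowest at ZT16 under both. Srebf1 and Acacb varied least.

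Recovered reads came to 29.3 to 53.0 M per library (median 37.4 M), and averaged 38.2 ± 5.74 M for DRF and 38.5 ± 4.64 M for NRF (SD, n = 28 per regimen). The tissue label held: the 6 cardiomyocyte markers were above 0 in every library and summed to 23070 to 36910 TPM. Other cell types were present at lower sums of 289 to 597 TPM for 3 endothelial markers, 327 to 546 TPM for 3 fibroblast markers, 43.1 to 104 TPM for 3 macrophage markers, 4.21 to 10.3 TPM for 3 Schwann cell markers and 1.98 to 192 TPM for 2 mesothelial markers. The 3 atrial markers ranged from 4.72 to 2475 TPM, with a median of 892 TPM under DRF and 274 TPM under NRF, and Sln was at 0 in 1 DRF library. In daily mean, DRF minus NRF, the log2 differences of the atrial markers were 1.07 to 1.26 (SE 0.47 to 0.56) and 0 of 3 were called (lowest adjusted p = 0.0861, limma). Called lower under DRF were 3 of 3 endothelial markers (-0.24 to -0.13), 2 of 3 fibroblast markers (Col1a1, the collagen gene, at -0.39, and Pdgfra at -0.09), 2 of 3 macrophage markers (Cd68 at -0.28 and Adgre1 at -0.20) and the cardiomyocyte marker Actc1 (-0.18), while Tnnt2 was called higher (0.10). Over all genes, 24.3% were called lower in this contrast and 1.67% higher, with a median of -0.0514. With median-of-ratios scaling (7.34% lower and 5.82% higher) Cdh5, Col1a1 and Cd68 were called lower (-0.18, -0.33 and -0.22), Tnnt2 was called higher (0.16), and the other markers lost their calls. Their part in the members' differences between the regimens was not tested. Because a heart is a mixture, fewer cells of a type and less RNA per cell cannot be told apart in any value below. The 8 adipocyte markers, which bear most directly on lipogenic genes, are given with the members further on.

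Scd1, Scd2 and Scd4 lie with Scd3 in 205 kb of chromosome 19 (chr19:44203269-44407879, build GRCm38, as are all coordinates here), and parts of their coding exons are alike. The longest stretch that Scd1 and Scd4 share is 116 bases in the coding sequence of exon 4 of both, and it is shown because it is where the pair are hardest to tell apart. Capitals mark the shared run in the GRCm38 sequence (Scd1 chr19:44401759-44401898, minus strand, and Scd4 chr19:44338910-44339049, plus strand), with 12 bases on each side.
Scd1: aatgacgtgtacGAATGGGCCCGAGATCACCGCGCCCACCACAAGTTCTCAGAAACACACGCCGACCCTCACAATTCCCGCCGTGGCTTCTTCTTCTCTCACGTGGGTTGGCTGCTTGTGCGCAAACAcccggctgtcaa
Scd4: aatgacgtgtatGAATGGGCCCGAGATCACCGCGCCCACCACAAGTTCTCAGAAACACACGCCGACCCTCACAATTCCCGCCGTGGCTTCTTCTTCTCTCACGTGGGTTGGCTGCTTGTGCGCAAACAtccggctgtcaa
The run is shorter than the 150-base reads, so a full read over it also covers bases that differ, whereas the longest run shared by Scd1 and Scd3 is 185 bases. Of the 31-base words in the Scd1 transcripts, 5.18% also occur in Scd2, 5.84% in Scd3 and 3.4% in Scd4, so that most Scd1 sequence is its own. How reads alike in more than 1 of these genes were assigned was not measured.

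The promoter of Fasn, the gene of the central enzyme, is printed from the RefSeq table (GRCm38.p6) because Fasn moved together with 4 other members. Its 250 bases before the start of transcription (chr11:120824548-120824797, minus strand) hold 69.2% G or C, against a median of 52.4% over 32851 mouse promoters. Capitals mark the motif CCAAT, to which NF-Y binds, found on either strand at 90 and 62 bases before the start.
Fasn: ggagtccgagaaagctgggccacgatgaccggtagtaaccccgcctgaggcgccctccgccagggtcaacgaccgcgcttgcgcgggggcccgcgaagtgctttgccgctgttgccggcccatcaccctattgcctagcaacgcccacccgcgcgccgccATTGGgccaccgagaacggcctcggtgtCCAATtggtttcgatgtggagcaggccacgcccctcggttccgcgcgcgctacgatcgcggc
CCAAT occurred in 33.8% of all promoters of that length. It was also in the window of Acacb and in 2 of the 3 windows of Srebf1, and not in those of Acly, Acaca, Elovl6 or Scd4. The 1 window listed for Acaca (chr11:84195188-84195437) and that for Acacb (chr5:114165268-114165517) precede starts inside these genes, so other starts of theirs were not searched. Neither the sterol response element searched as TCACNCCAC (1.05% of all promoters) nor the E-box CACGTG (6.02%) was in the windows of these 7 members on either strand, so these letters were absent from that window. Scd1 and Scd2 were not matched in the table.

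Per unit of transcript length, Scd1 was the most abundant member, at 105 ± 119 TPM over all libraries (mean ± SD, n = 56). Acacb followed at 72.6 ± 9.17 TPM, Acly at 34.1 ± 10.4, Scd2 at 23.6 ± 6.59, Fasn at 22.3 ± 19.3, Srebf1 at 16.1 ± 2.41, Scd4 at 8.54 ± 6.66, Acaca at 3.66 ± 1.92 and Elovl6 at 2.61 ± 2.22. In this order Acacb and Acly were the only neighbours whose means lay apart by more than their SDs added together. Acacb, the isoform typical of muscle, was above Acaca, the isoform of lipogenic tissue, in every library. Scd3, the fourth desaturase of the cluster, averaged 0.172 ± 0.0624 TPM and stayed under the filter.

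Srebf1 (ENSMUSG00000020538, chr11:60199089-60222581, minus strand) encodes SREBP-1, which switches on the genes of fatty acid synthesis. Its level was nearly the same under both regimens, with DRF and NRF means of 16.06 and 16.04 TPM and a log2 difference in daily mean of 0.01 (SE 0.05). The lowest group was DRF at ZT16, where the 4 libraries read 13.4, 13.7, 11.8 and 11.9 TPM, and the highest was DRF at ZT24, at 21.4, 16.8, 16.3 and 19.1 TPM. No rhythm passed in the limma harmonic fit (amplitude, from mean to peak on the log2 scale, 0.09 and adjusted p = 0.259 under NRF, 0.10 and 0.295 under DRF). With the adipocyte marker level as a covariate, the NRF rhythm passed at an amplitude of 0.15 (adjusted p = 0.0190). Exons of Srebf1 overlap those of Rai1 on the other strand, and the use of strand in counting is not given in the sources used here.

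Acly (ENSMUSG00000020917, chr11:100476353-100528000, minus strand) encodes ATP citrate lyase, which makes the acetyl-CoA used for synthesis. Under NRF its 7 group means lay between 30.03 and 33.4 TPM, and no rhythm passed (amplitude 0.04, adjusted p = 0.827, limma). Under DRF it was highest at ZT12, at 59.5, 74.96, 49.8 and 39.9 TPM, against 30.7, 30.1, 33.7 and 26.9 TPM at the same time under NRF. Every DRF library at ZT12 was above every NRF library. By ZT20 the DRF libraries read 23.6, 31.8, 25.4 and 28.3 TPM. The DRF rhythm had an amplitude of 0.38 and a peak at ZT12.3 ± 0.94 (SE, adjusted p = 0.00311, limma).

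Acaca (ENSMUSG00000020532, chr11:84129672-84401651, plus strand) encodes acetyl-CoA carboxylase 1, which makes malonyl-CoA for synthesis. At ZT12 its libraries read 7.06, 11.2, 6.30 and 4.09 TPM under DRF and 3.67, 3.27, 3.52 and 2.46 TPM under NRF, without overlap. Its DRF rhythm (amplitude 0.39, peak ZT13.3 ± 1.25, adjusted p = 0.0313, limma) lost its call when any of 5 single DRF libraries was left out, namely ZT0 replicate 2, ZT12 replicate 1, 2 or 3, or ZT16 replicate 2 (highest adjusted p = 0.0792), and also without ZT0, ZT4 or ZT16 as a whole (0.0632, 0.0643 and 0.0693). Acaca shares sequence with the pseudogene Gm5182: 31.7% of the 31-base words of Acaca occur in Gm5182, and 89.3% of those of Gm5182 occur in Acaca, so reads from that part of Acaca are uncertain.

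Acacb (ENSMUSG00000042010, chr5:114146535-114250761, plus strand) encodes acetyl-CoA carboxylase 2, whose malonyl-CoA restrains fatty acid import into mitochondria. It was the steadiest member, averaging 73.5 TPM (DRF) and 71.7 TPM (NRF), with a within-group SD of 0.16 on the log2 scale. At ZT12, when the other carboxylase was high under DRF, Acacb read 66.7, 63.2, 52.9 and 69.3 TPM, its lowest DRF group, and at ZT20 it read 85.8, 74.3, 85.1 and 95.5 TPM, its highest. The DRF rhythm was small (amplitude 0.14, peak ZT22.5 ± 1.05, adjusted p = 0.0102, limma), and the NRF rhythm missed the threshold (0.12, adjusted p = 0.0936) but passed without NRF ZT0 replicate 3 (adjusted p = 0.0437). The DRF rhythm lost its call without ZT24 (adjusted p = 0.0555).

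Fasn (ENSMUSG00000025153, chr11:120805846-120824547, minus strand) encodes fatty acid synthase. Its DRF libraries averaged 27.97 ± 25.1 TPM and its NRF libraries 16.7 ± 7.88 TPM (SD, n = 28 per regimen), a log2 difference in daily mean of 0.55 (SE 0.19). At ZT12 the DRF libraries read 52.6, 99.6, 41.98 and 22.98 TPM and the NRF libraries 25.98, 22.1, 16 and 9.03 TPM, so the groups overlapped in replicate 4 of DRF. At ZT16 under DRF a single library stood at 115 TPM and the other 3 at 27.9, 20.6 and 28 TPM. The rhythm under DRF (amplitude 0.61, adjusted p = 0.0622, limma) missed the threshold, and it passed when either of 2 single DRF libraries was left out, ZT4 replicate 2 or ZT24 replicate 3 (lowest adjusted p = 0.0277), and without ZT8, ZT20 or ZT24 (0.0371, 0.0295 and 0.0377). It passed without replicate 3 as a whole too (amplitude 0.81, adjusted p = 0.0458).

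Elovl6 (ENSMUSG00000041220, chr3:129532355-129638495, plus strand) encodes the elongase that turns palmitate into stearate. It was the least abundant member, and DRF libraries at ZT12 read 7.94, 11.1, 6.49 and 3.16 TPM against 2.53, 1.92, 1.54 and 1.04 TPM under NRF. The groups did not overlap. The DRF rhythm (amplitude 0.59, peak ZT12.6 ± 1.11, adjusted p = 0.0126, limma) peaked within about an hour of those of Acly and Acaca, while under NRF none passed (0.12, adjusted p = 0.632). Its exons overlap the antisense gene Gm35986.

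Scd1 (ENSMUSG00000037071, chr19:44394455-44407879, minus strand) encodes the main stearoyl-CoA desaturase of liver and fat. It had the widest gap between the regimens among the members, with DRF libraries at 153 ± 151 TPM and NRF libraries at 57.6 ± 34.02 TPM (SD, n = 28 per regimen), and its DRF mean was the higher at all 7 times. At ZT12 the DRF libraries read 319, 573, 275 and 125 TPM and the NRF libraries 94.2, 68.9, 61.0 and 20.4 TPM. That was the only time without overlap. At ZT16 under DRF the libraries read 132, 641, 104 and 137 TPM, and at ZT20 they read 18.1, 244, 45.7 and 31.9 TPM. Replicates of a group therefore differed by up to an order of magnitude: the within-group SD of Scd1 was 0.99 on the log2 scale, against a median of 0.14 over all genes tested. The log2 difference in daily mean was 1.14 (SE 0.26), and 0.89 without ZT12. No rhythm passed within either regimen (adjusted p = 0.549 under NRF and 0.123 under DRF, limma), and the DRF rhythm passed only without ZT20 (adjusted p = 0.0389) among the settings that left out a time.

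**Figure D1:**
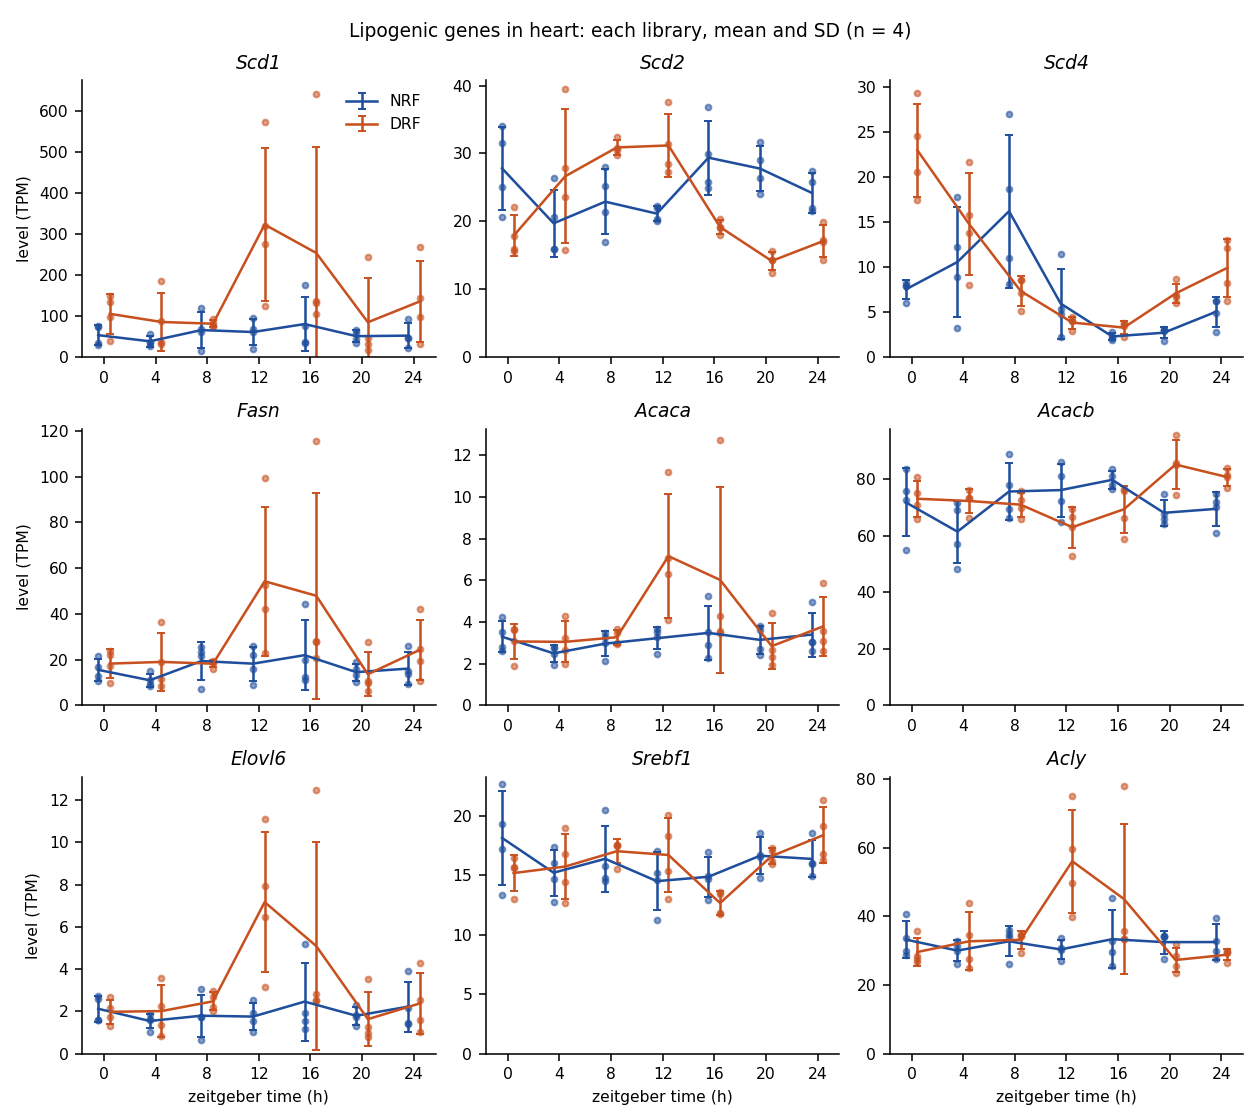
Level of each member (TPM, linear axis from 0) against zeitgeber time (h) under DRF and NRF; small points are the 4 libraries of a group and lines with bars are means ± SD, cut at 0. Scd1, Fasn, Acaca, Elovl6 and Acly have their highest DRF means at ZT12 and then ZT16, where 1 library stands far above the other 3, Scd2 is high in opposite parts of the day under the regimens, Scd4 is lowest at ZT16 in both, and Srebf1 and Acacb move little.

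Scd2 (ENSMUSG00000025203, chr19:44293674-44306864, plus strand) encodes a desaturase found in many tissues, and it was higher in the feeding phase under both regimens. Fed libraries here are those taken 4 and 8 h into the feeding phase (ZT16 and ZT20 under NRF, ZT4 and ZT8 under DRF), and fasted libraries those taken 4 and 8 h into the fasting phase. Under NRF, fed libraries read 24.96, 36.9, 29.9 and 25.8 TPM at ZT16 and 26.4, 29.03, 24.03 and 31.6 TPM at ZT20, and fasted libraries 15.99, 26.3, 15.9 and 20.7 TPM at ZT4 and 25.2, 17.02, 21.4 and 28.01 TPM at ZT8. The ranges overlapped, with means of 28.6 ± 4.25 and 21.3 ± 4.81 TPM (SD, n = 8 each). Under DRF, fed libraries read 15.8, 39.4, 27.8 and 23.5 TPM at ZT4 and 32.4, 29.8, 30.6 and 30.9 TPM at ZT8, and fasted libraries 18.98, 20.4, 19.2 and 18.04 TPM at ZT16 and 12.4, 14.3, 14.3 and 15.7 TPM at ZT20. There, 7 of the 8 fed libraries were above every fasted one.

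In limma, Scd2 was higher in fed than in fasted libraries under both regimens, by 0.42 under NRF (SE 0.12, adjusted p = 0.00711) and by 0.73 under DRF (SE 0.12, adjusted p = 1.06e-05), on the log2 scale. The NRF difference lost its call without replicate 3 (0.39, adjusted p = 0.0774) and without ZT16 (0.39, adjusted p = 0.0839). Its fitted peak was at ZT18.8 ± 0.93 under NRF (amplitude 0.25, adjusted p = 0.0154) and at ZT8.75 ± 0.41 under DRF (0.56, adjusted p = 4.77e-07), both in the feeding phase. The NRF rhythm lost its call in 5 settings, without replicate 2 or 3 and without ZT4, ZT16 or ZT20 (adjusted p up to 0.0971). Within 1 regimen, meal and time of day cannot be told apart. Over both regimens, the day (ZT4 and ZT8) minus the night (ZT16 and ZT20) was 0.15 for Scd2 (SE 0.08, adjusted p = 0.159, limma). It passed without ZT4 (0.28, adjusted p = 0.00963).

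Scd4 (ENSMUSG00000050195, chr19:44333092-44346743, plus strand) encodes a desaturase isoform known for its expression in heart, and its lowest group was ZT16 under both regimens. At ZT8 it read 11.1, 18.6, 8.09 and 27.1 TPM under NRF, when the mice fasted, and 8.62, 8.53, 5.16 and 7.09 TPM under DRF, when they ate. At ZT16 it read 2.15, 2.25, 2.84 and 1.93 TPM under NRF and 3.75, 3.44, 2.20 and 3.73 TPM under DRF. Every ZT8 library of either regimen was above every ZT16 library. Under DRF it read 6.06, 8.63, 6.89 and 6.71 TPM at ZT20, which overlapped with ZT8 (7.07 ± 1.10 and 7.35 ± 1.62 TPM, SD, n = 4 each), and was highest at ZT0. Fed minus fasted came to a log2 difference of -1.86 (SE 0.23) under NRF and 0.93 (SE 0.23) under DRF, opposite in sign, and day minus night over both regimens to 1.40 (SE 0.16). The DRF value was 0.50 without ZT4 and 0.47 without ZT16. The fitted peaks were at ZT5.98 ± 0.49 under NRF and ZT2.09 ± 0.45 under DRF, with amplitudes of 1.08 and 1.03.

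**Figure D2:**
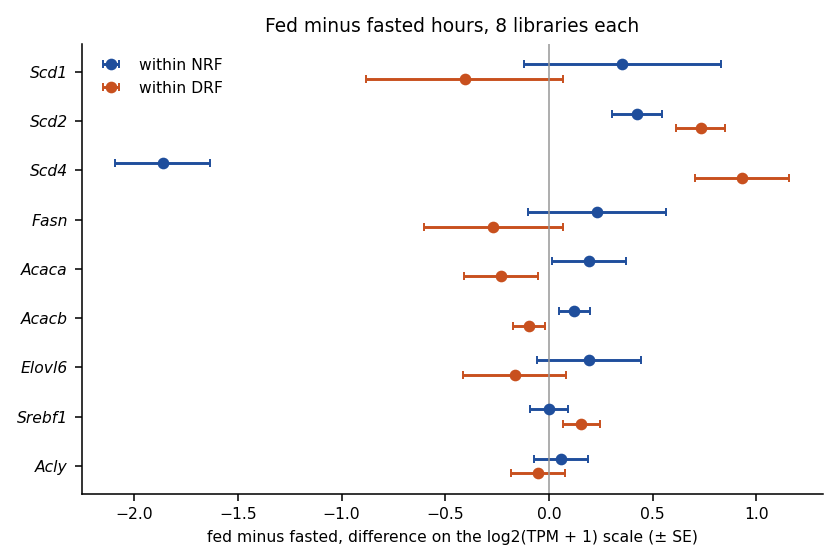
Fed minus fasted difference of each member on the log2(TPM + 1) scale, with SE bars, within NRF and within DRF (8 libraries per phase). Scd2 lies above 0 under both regimens, Scd4 at -1.86 under NRF and 0.93 under DRF, and the other 7 members have bars near or across 0.

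Across the members, 2 of 9 were called for fed against fasted under each regimen. They were Scd2 and Scd4, of which Scd4 is counted as description and nothing is read from its call, here or in the counts below. Over all genes, 22.5% of those tested were called under NRF and 26.5% under DRF (limma, adjusted p under 0.05). Of the other 7, the smallest adjusted p was 0.268 under NRF (Acacb, which passed without ZT8 at 0.27, adjusted p = 0.0388) and 0.202 under DRF (Srebf1, which passed without ZT20 at 0.34, adjusted p = 0.0346). Scd1 had a log2 difference of 0.35 under NRF and -0.41 under DRF with an SE of 0.48, so that a change of that size could not be told from 0. These values rested on single libraries: the NRF value was 0.05 without ZT8 replicate 2, and the DRF value was -0.03 without ZT20 replicate 2. Without replicate 2 as a whole both turned sign (-0.23 and 0.04), and the DRF value was 0.52 without ZT16. For the contrast of day with night, chosen after seeing the data, 1 of 9 members was called (Scd4), against 34.1% of all genes. The median log2 difference of the 9 members was 0.19 under NRF and -0.10 under DRF, and that of all genes -0.02 and 0.07.

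For rhythm within a regimen, 2 of 9 members were called under NRF (Scd2 and Scd4), where 37.2% of all genes were called, and 6 of 9 under DRF (Scd2, Scd4, Acly, Elovl6, Acacb and Acaca), where 32.2% were. Members were picked with levels of several under both regimens known, so the DRF count is not independent of that choice. Without ZT12, which leaves 4 libraries fewer, Acly, Elovl6, Acacb and Acaca lost their calls (adjusted p = 0.123, 0.264, 0.114 and 0.323, limma), and their amplitudes were 0.25, 0.37, 0.11 and 0.25. Scd2 kept its call there (adjusted p = 2.56e-05). Without replicate 1, the calls of Elovl6, Acacb and Acaca were lost at amplitudes of 0.59, 0.14 and 0.41 (adjusted p = 0.0692, 0.104 and 0.113, limma). Without replicate 2 they were lost as well, at amplitudes of 0.42, 0.15 and 0.20 (adjusted p = 0.0932, 0.0541 and 0.282, limma). The contrast between the regimens chose the members, so nothing is read from its counts: 5 of 9 members were called for a difference in rhythm (27.5% of all genes) and 4 of 9 for a difference in daily mean (26.0%). The 4 were Scd1, Fasn, Elovl6 and Acaca, all higher under DRF, the direction in which 1.67% of all genes were called, against 24.3% lower. With median-of-ratios scaling 5.82% of all genes were called higher and 7.34% lower. At ZT12, 5 of 9 members did not overlap between the regimens (13.5% of all genes), all higher under DRF, as were 2.58% of all genes. The count, in either direction, was 1 at ZT0 (15.4% of all genes), 0 at ZT4 (2.89%), 1 at ZT8 (7.53%), 2 at ZT16 (19.5%), 2 at ZT20 (19.7%) and 3 at ZT24 (13.5%).

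Other differences in daily mean, DRF minus NRF, were 0.45 for Elovl6 (SE 0.14), 0.32 for Scd4 (SE 0.12), 0.28 for Acaca (SE 0.10), 0.16 for Acly (SE 0.07), 0.00 for Acacb (SE 0.04) and -0.12 for Scd2 (SE 0.07), on the log2 scale. The median of all genes lay at -0.0514 in this contrast and at 0.00357 after median-of-ratios scaling, under which Scd1 stood at 1.21, Fasn at 0.61 and Scd2 at -0.05. The 9 members had a median of 0.28.

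Between ZT0 and ZT24, the same clock time a day apart, 0 of 9 members were called under either regimen (limma), where 0.0576% of all genes were called under NRF and 0.425% under DRF. At an unadjusted p under 0.05 there were 0 members under NRF and 2 under DRF, Scd4 and Srebf1. The share of all genes at that unadjusted threshold was not computed, so nothing is read from this count. Scd4 under DRF read 24.6, 20.5, 17.5 and 29.4 TPM at ZT0 and 12.1, 8.27, 6.25 and 13.0 TPM at ZT24, without overlap. Its log2 difference was -1.16 (SE 0.32), and -1.15 with median-of-ratios scaling. As the daily course of Scd4 was known, these values are description, and nothing is read from the settings that call it. Under NRF the same difference was -0.54 (SE 0.32). ZT0 and ZT24 count as 1 phase in the harmonic fit.

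The labels' protocol names visceral fat as another tissue that was taken, and adipocytes are known for strong expression of this pathway, so the adipocyte markers Adipoq, Cfd, Plin1, Cidec, Lep, Retn, Car3 and Adig were read in every library. They summed to 21.2 to 264 TPM under NRF (median 80.8 TPM) and 9.18 to 322 TPM under DRF (median 78.1 TPM). All 8 were above 0 in every NRF library, and Lep was at 0 in 2 DRF libraries. The 3 brown adipocyte markers summed to 37.2 to 169.5 TPM, of which Cidea, read in every library, gave 36.6 to 89.1 TPM. Ucp1 was at 0 in 14 NRF and 6 DRF libraries and otherwise reached 78.9 TPM. That was at ZT12 under DRF, where Ucp1, the uncoupling protein of brown fat, read 6.87, 78.9, 14.8 and 0 TPM, against 9.69, 0.447, 0.0339 and 0 TPM under NRF. The groups overlapped, and its log2 difference in daily mean was 0.75 (SE 0.40, adjusted p = 0.157, limma). Its part in the member levels at ZT12 was not tested. The adipocyte sum did not pass for a difference between the regimens (log2 difference -0.01, two-sided permutation p = 0.971 within ZT), nor did Adipoq, the fat hormone adiponectin, alone (0.27, p = 0.267). Of the 7 markers that passed the filter, 0 were called for daily mean (limma). Cfd, with a median of 36.3 TPM the largest part of the sum, was the 1 marker with a lower daily mean under DRF (-0.36), and the other 6 lay between 0.21 (Retn) and 0.38 (Plin1) higher on the log2 scale.

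Between replicates of a group, most members moved with these markers. The share of all genes that would pass was not computed, so the count is not read as a trait of these members. The deviation of Scd1 from its group mean had a Pearson r of 0.895 with that of the adipocyte sum over 56 libraries (Spearman rho 0.893, adjusted permutation p = 1.8e-05 for both, from the smallest p the permutations can give, 1e-05). The r was 0.874 for Fasn, 0.794 for Acaca, 0.787 for Elovl6 and 0.679 for Acly, at the same adjusted p. It was 0.547 for Srebf1 (adjusted permutation p = 0.00015) and 0.419 for Scd2 (0.00575). Scd4 did not pass by Pearson (r = 0.295, adjusted permutation p = 0.0868) but did by Spearman (rho 0.316, 0.0440), and with Adipoq alone it passed by both (r = 0.356 and rho 0.353, adjusted permutation p = 0.0284 and 0.0222), though not by Pearson without 2 libraries (r = 0.275, 0.0638). Acacb did not pass (r = -0.04, adjusted permutation p = 0.798). Left without the 2 libraries farthest from the median marker level, the r of the 7 that passed were 0.888 for Scd1, 0.874 for Fasn, 0.806 for Acaca, 0.798 for Elovl6, 0.691 for Acly, 0.516 for Srebf1 and 0.42 for Scd2. The number that passed was 8 without replicate 3 and 5 without replicate 2. The 9 correlations were adjusted together.

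**Figure D3:**
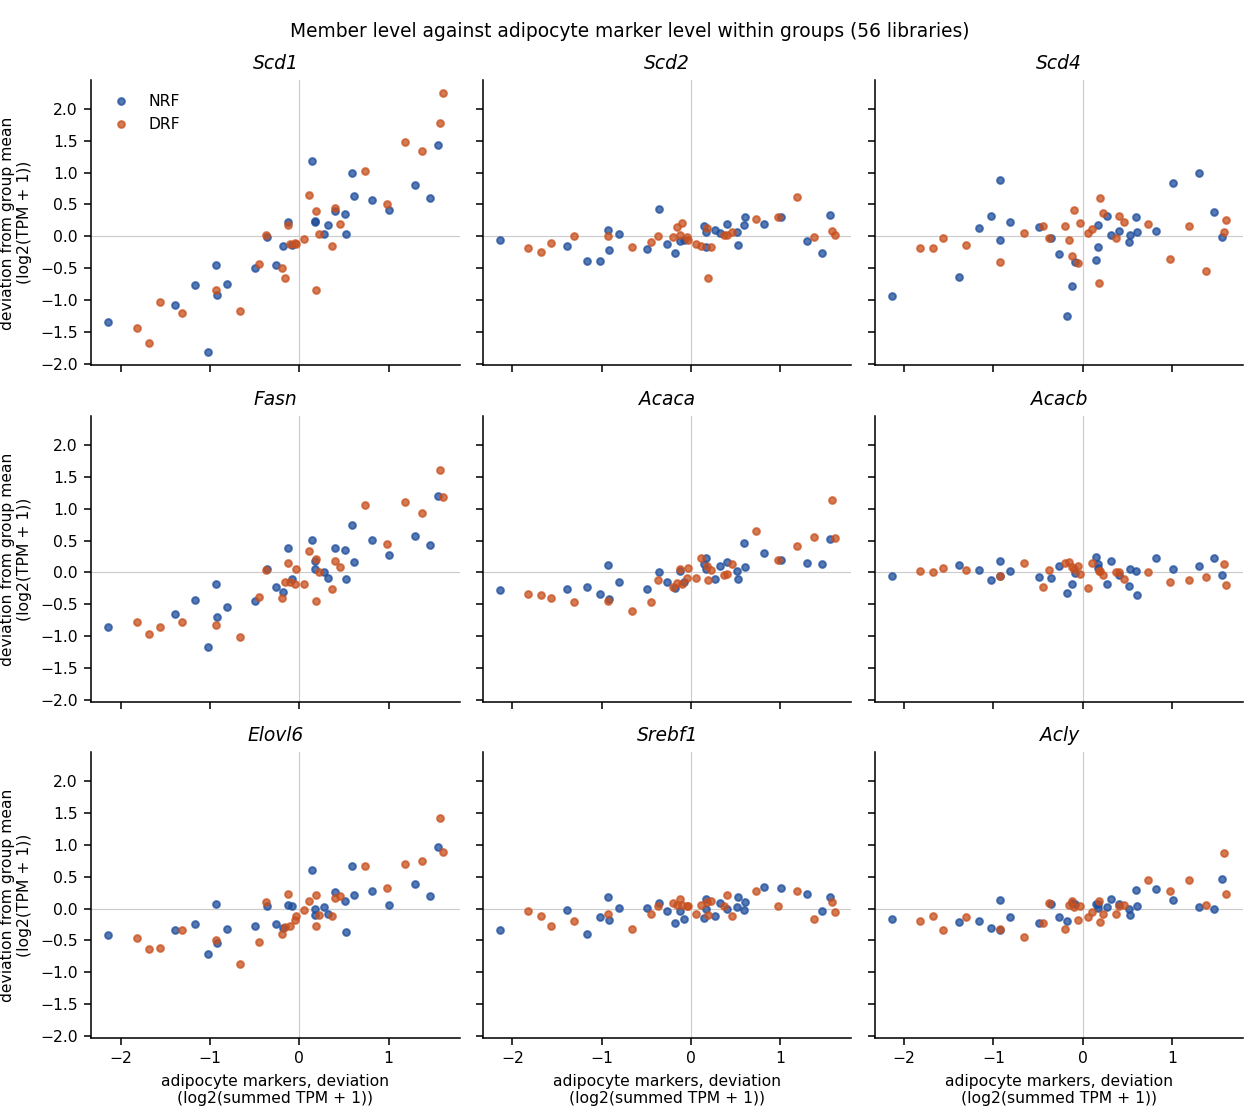
Deviation of each member from its group mean (log2(TPM + 1)) against that of the adipocyte marker sum (log2(summed TPM + 1)), 1 point per library, coloured by regimen. Scd1 (r = 0.895) and Fasn (r = 0.874) rise steeply with the markers in both regimens, and Acacb (r = -0.04) is level.

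The same 5 genes moved together. All 10 pairs among Scd1, Fasn, Acaca, Elovl6 and Acly had r of 0.779 to 0.966 over the within-group deviations (rho 0.77 to 0.974, adjusted permutation p = 3e-05 over 36 pairs, and r of 0.787 to 0.965 without 2 libraries). Scd2 and Srebf1 moved with each of these 5 and with one another, in 11 pairs with r of 0.448 to 0.639 (rho 0.473 to 0.737, highest adjusted permutation p = 0.0017, and r of 0.434 to 0.619 without 2 libraries). In all, 22 of the 36 pairs passed, and the share of pairs over all genes that would pass was not computed. Acacb had r of -0.07 to 0.23 with the other 8 members, of which 0 passed, and Scd4 had r of 0.059 to 0.41, of which 1 passed. That was with Srebf1 (r = 0.41, adjusted permutation p = 0.0162), and it missed without 2 libraries (r = 0.302, adjusted permutation p = 0.0988). The deviations share the libraries and their depth.

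Both the daily mean and the DRF rhythm were recomputed with the marker level in the fit. With the adipocyte sum as a covariate the log2 differences in daily mean were 1.14 for Scd1, 0.55 for Fasn, 0.45 for Elovl6 and 0.28 for Acaca. The sum differed by -0.01 between the regimens, so as a covariate it could hardly move these values. With Adipoq alone as the covariate they were 0.86, 0.35, 0.32 and 0.18, and without the 6 libraries highest in adipocyte markers 1.06, 0.46, 0.37 and 0.20. With the adipocyte sum in the fit, the DRF rhythm amplitude fell from 0.72 to 0.31 for Scd1 (adjusted p from 0.123 to 0.0739, limma). It fell from 0.61 to 0.30 for Fasn (0.0622 to 0.0259) and from 0.59 to 0.36 for Elovl6 (0.0126 to 0.00277). For Acaca it fell from 0.39 to 0.23 (0.0313 to 0.0140) and for Acly from 0.38 to 0.27 (0.00311 to 0.00279). That of Scd2 was 0.56 and then 0.53 (4.77e-07 and 4.65e-07). Adjusted p thus fell along with the amplitudes, and Fasn gained a call. At ZT12 the adipocyte sum averaged 171 ± 70.2 TPM (DRF) and 132 ± 90.9 TPM (NRF, SD, n = 4 per group), and the ranges overlapped. Cfd, the largest part of the sum, averaged 67.3 TPM (DRF) and 69.95 TPM (NRF) there, while the other 7 markers had the higher mean under DRF, by ratios from 1.25 (Cidec) to 2.88 (Lep). Each of the 8 overlapped between the regimens. All 8 had their highest DRF mean at ZT12, and 6 of them, Adipoq, Cfd, Lep, Retn, Car3 and Adig, had the next at ZT16, the order seen in the 5 members. Under NRF, Adipoq, Cfd, Cidec, Lep, Retn and Car3 were highest at ZT12 as well, Plin1 at ZT8 and Adig at ZT16. The 5 members had their highest NRF mean at ZT16. Adipoq read 16, 32.98, 17.7 and 9.56 TPM at ZT12 under DRF and 9.04, 34.1, 5.80 and 8.69 TPM at ZT16. What share of any member's reads came from fat was not tested.

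**Figure D4:**
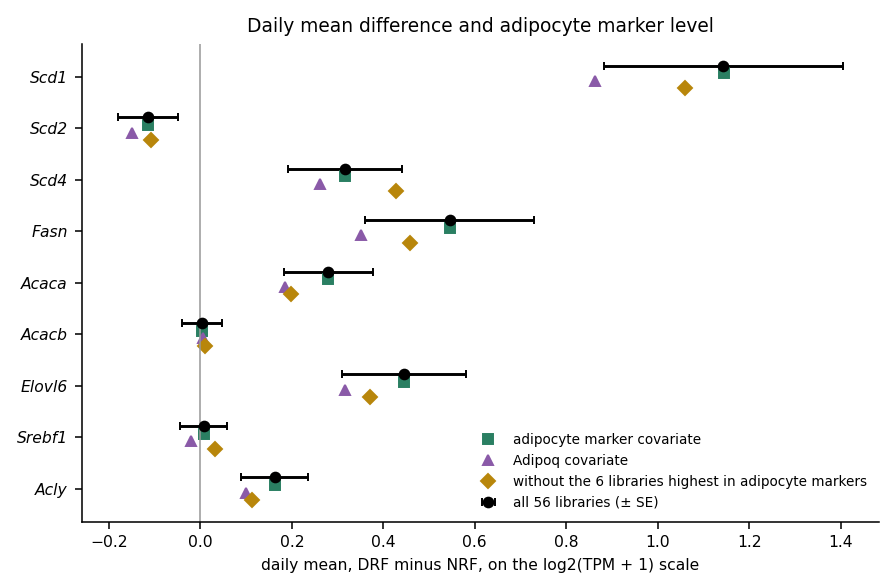
Daily mean difference, DRF minus NRF, of each member on the log2(TPM + 1) scale: black points with SE bars for all 56 libraries, squares with the adipocyte sum as covariate, triangles with Adipoq as covariate and diamonds without the 6 libraries highest in adipocyte markers. Scd1 lies between 0.86 and 1.14 in all 4, and the values of Acacb and Srebf1 stay near 0.

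The genes most like a member over the 14 group means were found by Pearson r, given as description. For Scd1 they were Gm5182 (0.951), Fasn (0.951), Cdo1 (0.946), Rbp4 (0.927) and Orm1 (0.927), and for Fasn they were Gm5182 (0.982), Acaca (0.962), Scd1 (0.951), Car5b (0.950) and Elovl6 (0.939). Gm5182 shares most of its sequence with Acaca, as above. For Scd4 they were Agpat3 (0.934), Lpcat3 (0.926), Adck5 (0.921), Prkab1 (0.921) and Tmem136 (0.919). The Scd1 and Fasn lists hold each other and Gm5182, and all genes share the same libraries.

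Around the members, 41 other genes of the pathway were looked at, of which 38 passed the filter. For fed against fasted, 10 of 38 were called under NRF (5 higher and 5 lower in fed libraries, against 22.5% of all genes) and 10 under DRF (7 higher, 3 lower, against 26.5%), so the shares were near those of all genes. Over all genes, 8.08% were higher and 14.4% lower under NRF, and 21.9% and 4.61% under DRF. With median-of-ratios scaling the splits were 7 higher and 4 lower under NRF and 4 higher and 9 lower under DRF, against 13.0% and 15.1% of all genes and 13.0% and 12.1%. The median log2 difference of the 38 genes was -0.01 under NRF and 0.04 under DRF. Mid1ip1, whose product helps acetyl-CoA carboxylase assemble into its active form, was like Scd2 higher in fed libraries under both regimens, by 0.97 under NRF (SE 0.12, adjusted p = 1.97e-08, limma) and 0.55 under DRF (SE 0.12, adjusted p = 0.00039). Its fed and fasted levels were 143 ± 22.4 and 75.6 ± 25.9 TPM for NRF, and 104 ± 15.4 and 72.1 ± 17.5 TPM for DRF (SD, n = 8 per phase). Dgat2, which makes triglyceride in its last step, was higher in the dark under both: fed libraries were 0.56 higher under NRF and fed minus fasted was -0.22 under DRF (adjusted p = 1.01e-06 and 0.0415, limma), at 362 ± 58.3 against 245 ± 46.4 TPM and 237 ± 27.5 against 277 ± 39.7 TPM. Agpat2, an enzyme of phosphatidic acid synthesis, was lower in fed libraries under both (-0.30 and -0.22, adjusted p = 0.00486 and 0.0363, limma). Under NRF, Mlycd, which breaks down malonyl-CoA, was lower when fed (-0.40, adjusted p = 0.000269, limma), as was Srebf2, the regulator of cholesterol synthesis (-0.30, adjusted p = 0.000464), and under DRF Srebf2 was higher when fed (0.20, adjusted p = 0.0214, limma, and 0.0543 with median-of-ratios scaling). Its day minus night over both regimens was 0.25 (adjusted p = 3.22e-05, limma); these further values of Srebf2 were picked after they were seen. Under NRF, Cyb5a, the electron donor of the desaturases, was higher when fed (0.28, adjusted p = 0.00262). Under DRF, Fads2 and Elovl5, of the polyunsaturated fatty acid route, were higher when fed (0.36 and 0.27, adjusted p = 0.0216 and 0.00607, limma) and Lpin1, which makes diacylglycerol, was lower (-0.24, adjusted p = 0.0151).

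Rhythm was called in 16 of the 38 under NRF (37.2% of all genes) and 17 under DRF (32.2%), and a difference in rhythm between the regimens in 19 (27.5%). By size of the difference the first were Mid1ip1 (0.88), Gpam, of the first step of glycerolipid synthesis (0.84), Pnpla3, a lipid droplet enzyme (0.59), Mlycd (0.51), Dgat2 (0.43) and Agpat2 (0.38), on the log2 scale. Gpam peaked at ZT10.0 under NRF and ZT23.1 under DRF, Mlycd at ZT5.61 and ZT23.5, and Mid1ip1 at ZT15.3 and ZT9.48. For daily mean 11 of 38 were called (26.0% of all genes), 2 higher under DRF and 9 lower, and with median-of-ratios scaling 7 were higher and 4 lower, 6 being called under both. The higher ones were Pnpla3 (0.48, adjusted p = 0.00265, limma) and Slc25a1, which carries citrate out of mitochondria to ATP citrate lyase (0.29, adjusted p = 0.0443). These genes were listed by role, but with earlier results of these data known, and p-values between the regimens carry that limit. Among the lower ones called under both scalings were the desaturase gene Fads3 (-0.27, adjusted p = 9e-07, limma), Dgat2 (-0.23, adjusted p = 0.00017) and Elovl5 (-0.21, adjusted p = 0.000368). Mid1ip1 was lower (-0.23, adjusted p = 0.0135, limma) and lost its call with median-of-ratios scaling (-0.17, adjusted p = 0.0929). For day against night 8 were called (34.1% of all genes), 4 in each direction, and 1 higher and 11 lower with median-of-ratios scaling. Between ZT24 and ZT0, 0 of 38 were called under either regimen (limma, against 0.0576% and 0.425% of all genes), with 6 under NRF and 4 under DRF at an unadjusted p under 0.05. The percentages are for adjusted p, and the share of all genes at the unadjusted threshold was not computed, so nothing is read from the 6 and 4. The median log2 difference in daily mean was -0.05 both for the 38 genes and for all genes.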

How the data were processed

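Polyadenylated RNA of heart was sequenced as paired 150-base reads, without molecular identifiers named in the protocol, so errors cover counting and library spread together. The submitters' processing notes name HISAT2 2.0.5, featureCounts 1.5.0-p3 and build mm10, and whether strand was used is not given in the sources used here. The deposited values are named TPM by the authors, but they are another unit, a library constant multiplied by log2(1 + scaled reads) and divided by exon length. Whole reads were recovered from their steps (within 0.1 of a read) with exon lengths of GENCODE M21 (GRCm38), which fitted as annotated for 96.02% of 22864 genes. A whole-number length was searched for 836 others, Scd1 and Scd2 included, 70 were too abundant for the check and 3 were left out. Values of 30000 reads or more were not checked for whole reads, which concerns Scd1 in 3 DRF libraries, ZT12 replicates 2 and 3 and ZT16 replicate 2. Linear TPM was recomputed from the reads. The fixed design had assumed linear TPM, and its tests were kept.

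The 13893 genes that averaged 1 TPM or more were tested on log2(TPM + 1), on which changes of low genes are understated, with limma 3.58.1 in R 4.3.3 (eBayes, trend = TRUE) and Benjamini-Hochberg adjustment over all of them, at a threshold of 0.05. Rhythm was an F test on a cosine and a sine of 24 h in the 28 libraries of a regimen. The harmonic fit replaced MetaCycle, which was not installed. Daily mean was fitted with 1 mean per ZT, regimen and its products with cosine and sine. Fed minus fasted and ZT24 minus ZT0 were contrasts of 14 group means. Correlations used deviations from group means, with 100000 permutations within groups (Python 3.11.15, scipy 1.17.1). The tests were checked on simulated data. The recovery was checked on values rebuilt by the same formula from recovered reads of genes that fitted as annotated. That check shows that the formula is inverted, and cannot show that it holds for the deposited values.

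All 9 members and the 41 other pathway genes are lists chosen with earlier results of these data known, the latter by their roles. Of the pathway genes, at most 6 called per comparison are named, by size, with Srebf2 under DRF and for day against night added later. Alternatives were the pseudocount, the filter, the scaling, the deposited values as they stand, each replicate, ZT or library left out, a replicate block and the adipocyte covariates.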

Additional observations from a re-analysis of the deposited data

Results flagged for a closer look

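In 11 of the 126 groups of 4 libraries (9 members in 14 groups), 1 library lay apart from the other 3 by Dixon's test at the 95% level, where chance gives about 1 in 20. The 9 members share these libraries and several move together, so the 126 groups are not independent of one another. Of the 11, 7 were replicate 2 of a group. Replicate 2 of DRF at ZT16 stood apart in 5 members at once: Scd1 at 641 TPM (the others 104 to 137 TPM), Fasn at 115 TPM (20.6 to 28 TPM), Acaca at 12.7 TPM (3.497 to 4.31 TPM), Elovl6 at 12.5 TPM (2.51 to 2.84 TPM) and Acly at 77.8 TPM (33.3 to 35.6 TPM). It was also the library highest in adipocyte markers, at 322 TPM, and the part of these in the member levels was not tested. Scd1 was high in replicate 2 of DRF at ZT20 as well, at 244 TPM against 18.1 to 45.7 TPM. Acly was low in replicate 3 of NRF at ZT20 (27.5 TPM against 34.1 to 34.2 TPM), in replicate 3 of DRF at ZT8 (29.2 TPM against 34.2 to 34.99 TPM) and in replicate 2 of DRF at ZT24 (26.5 TPM against 29.3 to 29.8 TPM). Scd4 was low in replicate 1 of NRF at ZT0 (5.99 TPM against 7.91 to 8.25 TPM), and Srebf1 in replicate 1 of DRF at ZT8 (15.5 TPM against 17.5 to 17.6 TPM).

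The fed minus fasted difference of Scd4 had opposite signs under the regimens and differed between them by 2.79 on the log2 scale, given as description because its daily course was known when it was chosen.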

How the results depend on the processing

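The counts of members called moved as follows. Scd4 is counted in each, and a range is that with a replicate left out. Daily mean (4 of 9) ranged from 1 to 4. It was 6 with median-of-ratios scaling, without ZT8 and with the adipocyte covariate, 5 with a pseudocount of 0.1, the deposited values or the mean of the 7 differences, 3 without ZT24 or the 6 libraries highest in adipocyte markers, 2 without ZT0, ZT4 or ZT16, and 1 without ZT12. Rhythm within NRF (2) ranged from 1 to 2. It was 3 without ZT0 and with either the adipocyte sum or Adipoq as covariate, and 1 without ZT4, ZT16 or ZT20. Rhythm within DRF (6) ranged from 3 to 7, and was 8 without ZT20, 7 without ZT8 and with either covariate, 5 without ZT0, ZT4 or ZT16, and 2 without ZT12. The difference in rhythm (5) was 2 without ZT12 and 8 with either covariate. Fed minus fasted within NRF (2) ranged from 1 to 2, and was 3 without ZT8 and 1 without ZT16. Within DRF (2) it was 3 without ZT20 and 1 without ZT4 or ZT16. The correlations with adipocyte markers (7) ranged from 5 to 8 and were 8 with Adipoq alone. ZT24 minus ZT0 within DRF (0) was 1 with median-of-ratios scaling and without ZT4, and 0 to 1 with a single library left out. Day minus night (1) was 2 with median-of-ratios scaling, without ZT4, ZT8 or ZT20 and with the adipocyte covariate, and 1 to 2 with a single library left out. Of 1512 results for single members under an alternative, 1422 kept their call, 38 gained one and 52 lost one. Of the 1422, 75 changed sign, all of them uncalled both before and after. Of the called results 0 changed sign. The cause of these changes was not tested. Replicate numbers did not pair the libraries (median correlation of same-numbered deviations 0.0127, with 25.3% of 364 pairs over 0.1), and a replicate block left the counts at 4, 2, 6, 5, 2, 2, 0, 0 and 1 in the order daily mean, rhythm within NRF, rhythm within DRF, difference in rhythm, fed minus fasted within NRF and DRF, ZT24 minus ZT0 within NRF and DRF, and day minus night. With 4 libraries per group and a within-group SD of 0.99 for Scd1, differences of Scd1 at a single time are the least certain.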
